A study of Mus musculus with 24 samples.

Results

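The genes described here are 35 members of the glycolytic pathway and of the hypoxia-inducible factor (HIF) system, found by gene symbol among the 54658 symbols of the count tables. They comprise 16 glycolytic enzymes, 3 glucose and lactate transporters, 3 regulators of glycolysis, HIF-α itself (Hif1a) with 2 of its prolyl hydroxylases (Egln1 and Egln3), and 10 further genes known as HIF targets. Male C57BL/6 mice, 7 to 12 weeks old, received β-nicotinamide mononucleotide (β-NMN, a precursor of the coenzyme NAD+) at 185 mg/kg per day, or saline (0.9% NaCl, vehicle), by intraperitoneal injection from the time peritonitis was induced, with the last dose 24 h before sacrifice. In the sterile peritonitis experiment, 1 mL of 4% Brewer thioglycollate (TGC) drew leukocytes into the peritoneum of 6 vehicle and 6 β-NMN mice, and the lavaged cells were plated and exposed to E. coli for 6 h in both groups, so no unstimulated library was part of the comparison. In the septic experiment, cecal ligation and puncture (CLP) was performed on 3 vehicle and 3 β-NMN mice, and the heart and the lung of each mouse were taken 24 h later. The peritoneal libraries are bulk RNA of mixed, plated lavage cells, and in bulk RNA fewer cells of a type and less RNA per cell cannot be told apart.

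Glycolysis splits glucose to pyruvate, and Ldha reduces pyruvate to lactate while it returns NADH to NAD+, the coenzyme that Gapdh consumes. HIF-α is made continuously and, when oxygen is available, is hydroxylated by the Egln enzymes and degraded. When it escapes, it binds a short core motif in the DNA of glucose transporters, glycolytic enzymes, angiogenic factors and its own hydroxylases. Macrophages that meet bacterial products are known to raise both HIF-α and glycolysis, whereas cardiac muscle carries its own isozymes and the insulin-responsive transporter Slc2a4.

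Total counts were 31126823 to 112456050 in the peritoneal libraries, 27319513 to 68523239 in hearts and 8915366 to 28356786 in lungs. The 12 peritoneal libraries fell into 7 with totals up to 53319385 and 5 with totals of 90571560 or more, and both sets held both treatments. The libraries matched their labelled tissue: summed cardiomyocyte markers reached 38201 to 59704 CPM (read counts scaled to a common library size, with TMM factors) in hearts, summed lung epithelial markers 60581 to 107124 CPM in lungs, and summed macrophage markers 8007 to 14470 CPM in peritoneal cells. The libraries that stood apart were β-NMN replicate 6 of the peritoneal cells and vehicle replicate 2 of the hearts and of the lungs, the latter from the same mouse. Many results, though not each one, are also given without them. The peritoneal and CLP tables were normalized separately, so no test was made between them.

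The HIF core motif was looked for as the letters ACGTG on either strand, from 250 bases before to 50 bases after the RefSeq start (GRCm38.p6). It was present for 23 of the 32 members with a window (71.9%), against 21.8% of all 27025 genes with one and 28.8% of the 10660 that were also tested in peritoneal cells. The related letters GCGTG were found for 65.6% of members and 35.2% of all genes, and the E-box CACGTG, which holds ACGTG on both strands, for 15.6% and 8.09%. By response in peritoneal cells, it was present for 3 of 4 members called higher with β-NMN, 9 of 12 called lower and 11 of 16 not called. A match is a description of letters and not evidence of binding. Stretches of 60 bases are shown for members on which the results turn, a transporter, an exporter, a regulator, a hydroxylase, HIF-α itself, a target called higher and enzymes called higher or lower, on the gene's own strand and with ACGTG or its reverse complement in capitals. Those of Slc16a3, Pfkfb3, Ldha and Hif1a lie inside the gene span of GENCODE M21, at a RefSeq start within it, and that of Slc2a1 runs into its span, whereas the others lie before it.
Slc2a1, chr4:119108664-119108723, plus strand: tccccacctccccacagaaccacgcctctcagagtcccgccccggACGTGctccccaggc
Slc16a3, chr11:120949007-120949066, plus strand: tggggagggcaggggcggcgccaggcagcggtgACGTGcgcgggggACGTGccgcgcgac
Pfkfb3, chr2:11502128-11502187, minus strand: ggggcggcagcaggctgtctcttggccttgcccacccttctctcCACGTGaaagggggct
Egln3, chr12:54204065-54204124, minus strand: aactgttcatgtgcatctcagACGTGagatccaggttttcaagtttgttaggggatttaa
Ldha, chr7:46845725-46845784, plus strand: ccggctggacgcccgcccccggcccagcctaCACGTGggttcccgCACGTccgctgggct
P4ha1, chr10:59323235-59323294, plus strand: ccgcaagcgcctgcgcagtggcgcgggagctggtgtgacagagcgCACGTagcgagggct
Hk3, chr13:55021527-55021586, minus strand: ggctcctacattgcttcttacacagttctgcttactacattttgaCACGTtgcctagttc
Pfkm, chr15:98092409-98092468, plus strand: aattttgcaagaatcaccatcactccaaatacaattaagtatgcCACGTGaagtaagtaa
Hif1a, chr12:73907752-73907811, plus strand: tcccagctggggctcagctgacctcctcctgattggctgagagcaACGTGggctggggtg

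The members were first compared for their level, as CPM per kilobase of exon, in vehicle libraries. In peritoneal cells the highest level was that of hexokinase Hk3, 300.4 ± 52.7 (SD, n = 6), followed by Gapdh, Ldha, Pfkfb3 and Aldoa, which lay between 170 and 206 and were not tested against each other. Hif1a stood ninth, at 112 ± 22.8 CPM per kilobase, and Slc2a1 below it, at 88.8 ± 15.2. In hearts Aldoa (674 ± 175), Gapdh (369) and the muscle phosphofructokinase Pfkm (227) led, and in lungs Aldoa (185 ± 71.4), Pkm (118) and Ldha (111) did. Without vehicle replicate 2 the hearts kept that order, whereas in lungs Gapdh (105) took the third place and Vegfa (97.2) lay beside Ldha (96.6). Slc2a4 was all but missing from peritoneal cells, at 0 to 0.156 CPM, and was not tested there. Aldoc was lowest in hearts, at 0.108 to 0.282 CPM, and was not tested there.

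**Figure D1:**
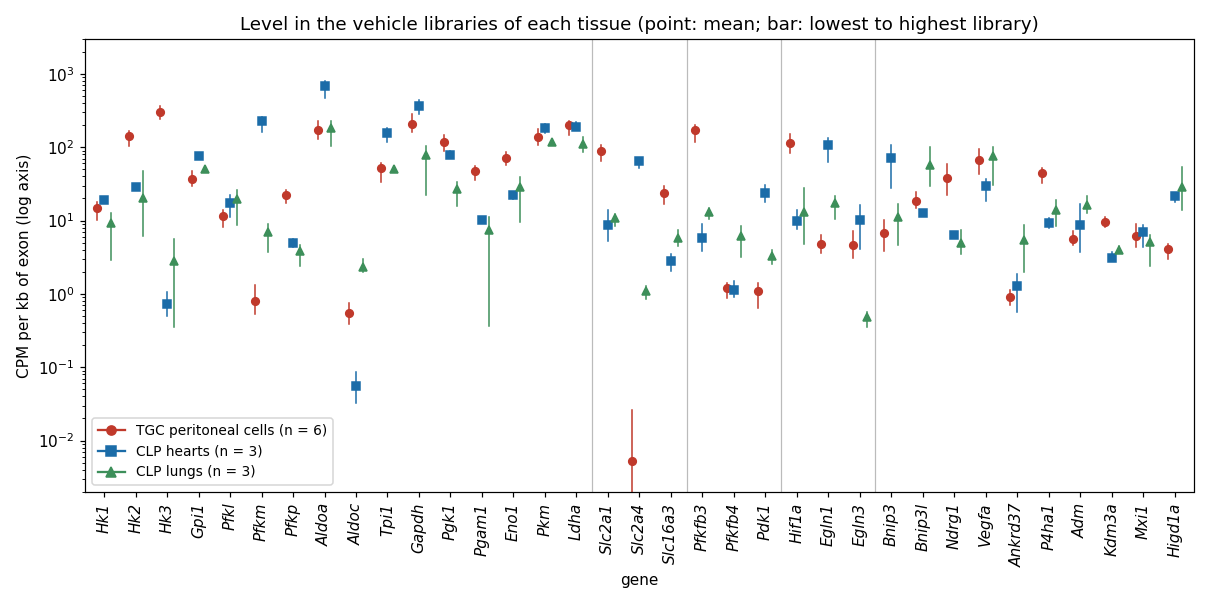
Level of each of the 35 members in vehicle libraries of peritoneal cells, hearts and lungs, as CPM per kilobase of exon on a log axis, with points for means and bars from the lowest to the highest library. Hk3 leads in peritoneal cells, and Aldoa leads in hearts and in lungs.

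β-NMN was then compared with vehicle in the peritoneal cells to ask how these genes responded to the treatment. In this comparison members moved in both directions, with lower levels more frequent: 18 of the 34 tested passed an adjusted p of 0.05 by edgeR's quasi-likelihood test, which is close to the 51.6% of all 14985 genes tested. Of these, 5 were higher with β-NMN (23.7% of all genes were) and 13 lower (27.9% of all genes were). Values of the 6 mice per group did not overlap for 10 members, against 26.6% of all genes; 4 lay higher (12.6% of all genes) and 6 lower (14% of all genes). Only Hif1a, Pfkm and Vegfa were called with a change of at least 1 log2 unit, which 18.6% of all genes were. At an unadjusted p below 0.05 the members numbered 20 (57.3% of all genes). The log2 fold change was above 0 for 11 of the 34 (48.5% of all genes), with a median of -0.22 over the members and -0.02 over all genes. Without β-NMN replicate 6, 14 of the 34 were above 0 (49.6% of all genes), with medians of -0.11 and -0.0070.

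The transcript of HIF-α was among the members that fell. Hif1a (chr12:73901375-73947530, plus strand) ranged from 497 to 883 CPM in vehicle cells, with a median of 656, and from 253 to 343 CPM in β-NMN cells, with a median of 318. Every β-NMN library was below every vehicle library, and the log2 fold change was -1.11 ± 0.13 (SE; adjusted p = 7.39e-06). Hif1a shares 148 exonic bases with Gm49321 on its strand and 330 with Gm15283 on the other. Egln3, a hydroxylase that HIF itself induces, ranged from 8.20 to 19.0 CPM with vehicle (median 11.9) and from 1.26 to 9.45 CPM with β-NMN (median 7.67). These groups overlapped, and the log2 fold change of Egln3 was -0.89 ± 0.35 (adjusted p = 0.0433), a call made in 4 of 6 other planned settings. Egln1, the main oxygen-sensing hydroxylase in most tissues, had a log2 fold change of -0.64 ± 0.26 and did not pass (adjusted p = 0.0556), although it was called in 5 of 6 other planned settings (adjusted p from 0.00413 to 0.0674) and in 1 of 12 fits that left out a library (adjusted p from 0.0447 to 0.12).

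Both transporters that could be tested were called lower, as were 27.9% of all genes. Slc2a1, the basal glucose importer, ranged from 231 to 372 CPM in vehicle libraries (median 316) and from 70.5 to 228 CPM in β-NMN libraries (median 182). The groups did not overlap, with a log2 fold change of -0.86 ± 0.22 (adjusted p = 0.00429). Slc16a3, the lactate exporter, ranged from 89.7 to 156 CPM and from 23.6 to 87.2 CPM, with medians of 129 and 75.8. Again no β-NMN library reached the lowest vehicle library, and the log2 fold change of Slc16a3 was -0.85 ± 0.25 (adjusted p = 0.0102). The lowest β-NMN value of both genes was that of replicate 6.

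Of the regulators, only Pfkfb3 was called (51.6% of all genes were). Pfkfb3 makes fructose-2,6-bisphosphate, the activator of phosphofructokinase, and ranged from 887 to 1520 CPM in vehicle cells (median 1402) and from 659 to 969 CPM in β-NMN cells (median 741). The groups overlapped at their edge, and the log2 fold change was -0.72 ± 0.15 (adjusted p = 0.000875). Its paralogue Pfkfb4 was scarce, at medians of 5.80 CPM with vehicle and 6.43 CPM with β-NMN, with a log2 fold change of 0.16 ± 0.12 (adjusted p = 0.314). Pdk1, which inhibits pyruvate dehydrogenase, gave -0.14 ± 0.27 (adjusted p = 0.695), from medians of 8.99 and 8.32 CPM.

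Of the 16 glycolytic enzymes 3 rose (Hk3, Pfkp and Ldha; 23.7% of all genes did), 4 fell (Pfkm, Pfkl, Eno1 and Aldoc; 27.9% of all genes did) and 9 did not pass the test, and their median log2 fold change was -0.08. Hk3 (chr13:55005985-55021385, minus strand), the hexokinase typical of myeloid cells, ranged from 879 to 1344 CPM with vehicle (median 1134) and from 1448 to 2079 CPM with β-NMN (median 1678). The groups did not overlap, and the log2 fold change of Hk3 was 0.64 ± 0.13 (adjusted p = 0.00103). The other hexokinases showed no such difference. Hk2 ranged from 628 to 993 CPM and from 714 to 982 CPM, with a log2 fold change of -0.04 (95% interval -0.30 to 0.22, adjusted p = 0.789). Hk1 ranged from 85.7 to 154 CPM and from 122 to 144 CPM, with a log2 fold change of 0.04 (95% interval -0.28 to 0.37, adjusted p = 0.827).

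The phosphofructokinases, which catalyse the committed step, moved in opposite directions. Pfkp, the platelet-type form, ranged from 229 to 351 CPM in vehicle cells (median 315) and from 368 to 415 CPM in β-NMN cells (median 393), without overlap (log2 fold change 0.41 ± 0.11, adjusted p = 0.00454). Pfkl, the liver-type form, ranged from 55.2 to 93.2 CPM and from 16.4 to 56.9 CPM, with medians of 80.3 and 48.0. The ranges of Pfkl overlapped slightly, and the log2 fold change was -0.81 ± 0.23 (adjusted p = 0.00929). Pfkm was scarce in these cells, at 1.78 to 4.37 CPM with vehicle and 0.956 to 1.63 CPM with β-NMN, and fell without overlap (-1.13 ± 0.22 on the log2 scale, adjusted p = 0.000697). Pfkp shares 748 exonic bases with Pitrm1 on the opposite strand, and Pfkm shares 341 with Gm26513 on the same strand. The sources used here do not state whether strand was used in counting.

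Expressed as a share of the summed hexokinase level per kilobase, Hk3 took 65.8% ± 2.88 (SD, n = 6) in vehicle cells and 75.3% ± 2.01 in β-NMN cells, and Hk2 took 31.0% ± 2.87 and 22.2% ± 1.74. Pfkp took 64.0% ± 2.93 of the phosphofructokinase level with vehicle and 81.0% ± 5.29 with β-NMN, and Pfkl took 33.5% ± 2.71 and 18.002% ± 5.53. None of these 4 pairs of ranges overlapped. The shares within a family are not independent of each other, and no test was made on them.

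**Figure D2:**
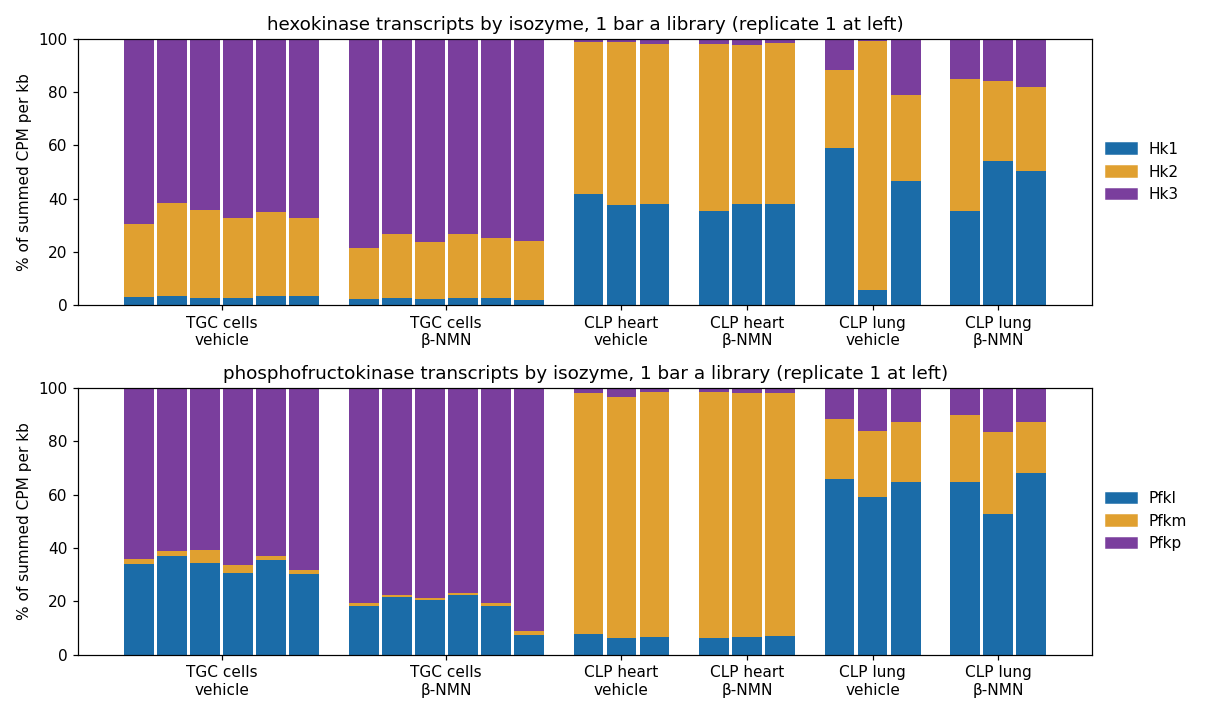
Share of each hexokinase and phosphofructokinase isozyme in the summed level per kilobase of its family, as stacked bars, 1 for each library. In peritoneal cells Hk3 and Pfkp take larger shares with β-NMN, whereas in hearts Pfkm holds 91.0% with vehicle and 91.8% with β-NMN.

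In the lower part of the pathway, enolase Eno1 ranged from 311 to 462 CPM with vehicle (median 403) and from 162 to 316 CPM with β-NMN (median 290), with a log2 fold change of -0.51 ± 0.15 (adjusted p = 0.011). Ldha ranged from 486 to 754 CPM and from 625 to 933 CPM, with medians of 698 and 878. Despite the overlap, Ldha passed as higher (log2 fold change 0.33 ± 0.12, adjusted p = 0.034). Ldha, which makes lactate, and Slc16a3, which exports it, were thus called in opposite directions. The call of Ldha held in only 9 of 12 fits that left out a library, and that of Slc16a3 in 12 of 12. The brain-type aldolase Aldoc was near 1 CPM and fell by 0.70 on the log2 scale (adjusted p = 0.0457), a call made in only 2 of 6 other planned settings (adjusted p from 0.0238 to 0.076). Gapdh ranged from 663 to 1168 CPM and from 543 to 841 CPM and did not pass (-0.20 ± 0.14, adjusted p = 0.258). Its lowest value was that of β-NMN replicate 6, and without that library the log2 fold change was -0.096. Gapdh has 140 near-identical copies in the annotation, whose summed CPM reached at most 8.43% of that of Gapdh in these cells. The 6 remaining enzymes not called (Gpi1, Aldoa, Tpi1, Pgk1, Pgam1 and Pkm) had log2 fold changes from -0.30 for Pgk1 to 0.35 for Pgam1. Without β-NMN replicate 6 the values of Pgk1 and Pgam1 were -0.17 and 0.51, and Pgam1 was then called.

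Of the 10 other HIF targets 2 rose (23.7% of all genes did), 4 fell (27.9%) and 4 did not pass, with a median log2 fold change of -0.16. Vegfa (chr17:46016993-46032369, minus strand), the angiogenic growth factor, ranged from 185 to 402 CPM with vehicle (median 275) and from 59.1 to 151 CPM with β-NMN (median 115). The groups did not overlap, and the log2 fold change of -1.34 ± 0.21 was the lowest of the 34 members tested (adjusted p = 9.08e-05). Kdm3a, a histone demethylase, ranged from 66.2 to 92.6 CPM and from 41.3 to 58.1 CPM, also without overlap (-0.66 ± 0.10, adjusted p = 6.47e-05). Mxi1, a repressor of the Myc network, fell by 0.54 on the log2 scale (adjusted p = 0.0288), and Ndrg1, a stress-responsive gene, by 0.63 (adjusted p = 0.0432).

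The targets that rose were the mitophagy receptor Bnip3l and the collagen prolyl hydroxylase P4ha1. Bnip3l (chr14:66985239-67008877, minus strand) ranged from 57.9 to 95.3 CPM in vehicle cells (median 68.2) and from 118 to 151 CPM in β-NMN cells (median 135). The log2 fold change of 0.93 ± 0.11 was the highest of the members tested (adjusted p = 8.89e-06). P4ha1 ranged from 135 to 214 CPM and from 243 to 301 CPM (0.61 ± 0.10, adjusted p = 0.000214). Neither gene's groups overlapped. Bnip3, the paralogue of Bnip3l, gave -0.34 ± 0.32 (adjusted p = 0.397) and has 4 near-identical copies whose CPM reached up to 22.8% of its own. Without β-NMN replicate 6, the lowest library for Bnip3, its log2 fold change was -0.12.

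**Figure D3:**
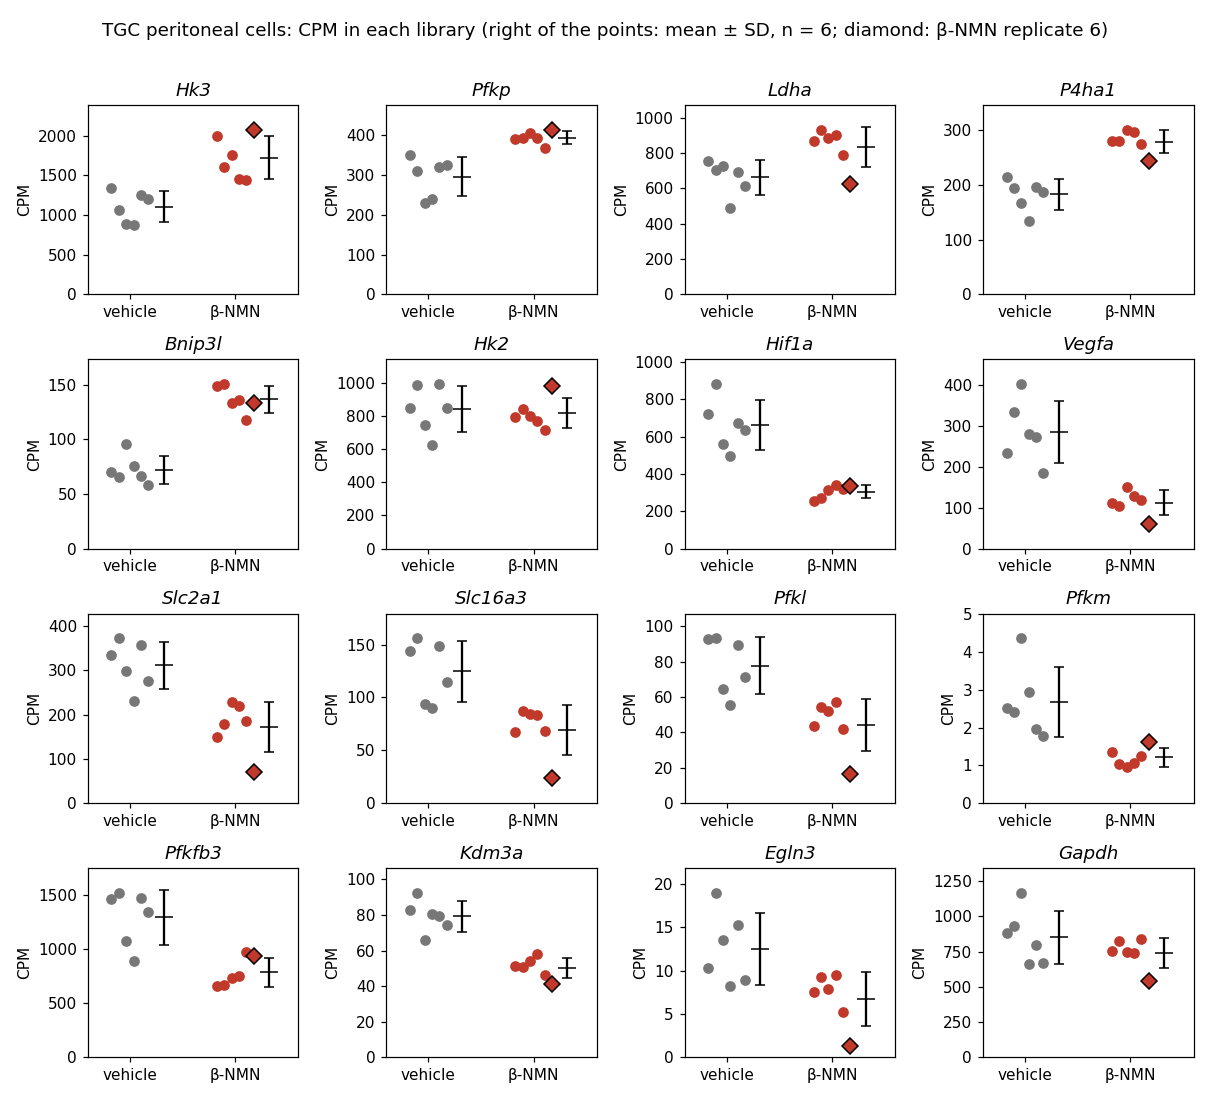
CPM of 16 members in each peritoneal library on linear axes from 0, with the mean ± SD of 6 libraries beside each group and a diamond for β-NMN replicate 6. Hif1a, Slc2a1, Slc16a3 and Vegfa lie lower and Hk3, Pfkp, Bnip3l and P4ha1 higher in every β-NMN library than in any vehicle library.

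The library of β-NMN replicate 6 was the lowest of the 12 for 21 of the 34 members and the highest for Hk3 and Pfkp. Without it 17 members were called (51.6% of all genes), 6 higher (24.8%) and 11 lower (26.8%). Pgam1 then passed (0.51, adjusted p = 0.00245), and Aldoc and Mxi1 did not (adjusted p = 0.106 and 0.0528). Egln3, Slc2a1, Slc16a3 and Pfkl kept their calls without it, at log2 fold changes of -0.64, -0.67, -0.64 and -0.61. The calls of 13 members (Hk3, Pfkl, Pfkm, Pfkp, Eno1, Slc2a1, Slc16a3, Pfkfb3, Hif1a, Bnip3l, Vegfa, P4ha1 and Kdm3a) held whichever library was left out, as did those of 42.3% of all genes tested. Those of Aldoc, Ldha, Egln3, Ndrg1 and Mxi1 did not, with adjusted p of up to 0.119, 0.0756, 0.104, 0.137 and 0.106.

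The sign of the enzymes' median differed between the depth sets, which also differed in their mice. β-NMN replicate 6 lay in the shallower set, and the deeper set held vehicle replicates 4 to 6 and β-NMN replicates 1 and 2. In the 7 libraries of lower depth, where 27.9% of all genes were called (13.2% higher and 14.7% lower), 11 members were called (3 higher and 8 lower), and the median log2 fold change of the glycolytic enzymes was -0.35. In the 5 deeper libraries, where 30.5% of all genes were called (13.9% higher and 16.6% lower), 11 members were called (6 higher and 5 lower), and that median was 0.19. All 18 members called over the 12 libraries had the same sign in both sets, as did 98.9% of all genes called. The 7 members Hk3, Pfkfb3, Hif1a, Bnip3l, Vegfa, P4ha1 and Kdm3a were also called in both, as were 20.9% of all genes tested. Aldoa was called lower in the shallower set (-0.48, adjusted p = 0.0443) and higher in the deeper set (0.49, adjusted p = 0.033). The difference between the sets was not tested, nor was the part of β-NMN replicate 6 in it.

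Markers of other cell types moved with treatment in the same libraries. Summed neutrophil markers were 523 to 1042 CPM with vehicle and 360 to 480 CPM with β-NMN, with 6 of 8 tested called lower and 1 higher. Summed fibroblast markers were 111 to 1173 CPM and 22.9 to 100.0 CPM, with 5 of 5 tested called lower, and erythroid markers were 2.93 to 38.8 CPM and 52.5 to 133 CPM, with 5 of 5 higher. Of the 10 macrophage markers 4 were called higher and 1 lower. Called lower were also 3 of 6 B cell, 2 of 6 mast cell, 4 of 5 mesothelial and 5 of 6 T cell markers, although the summed T cell markers were 27.6 to 57.2 CPM with vehicle and 40.9 to 59.6 CPM with β-NMN. Summed adipocyte markers were 52.6 to 86.5 CPM and 107 to 188 CPM, without overlap. Only 3 of these 8 markers could be tested, however, with 1 called higher and 0 lower. The tested adipocyte markers had a median of 0.046 on the log2 scale. The 10 most abundant genes took 7.71% to 9.08% and 10.97% to 12.01% of the counts, also without overlap. The part of these cells in the values of Hif1a, Vegfa, Hk3 and the other members was not tested.

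Further genes of both pathways were counted from lists that hold no member. Of 19 further glycolysis genes tested, 5 were higher and 3 lower with β-NMN, with a median of 0.16, where 23.7% of all genes were higher and 27.9% lower. Both subunits of the mitochondrial pyruvate carrier rose, Mpc1 by 0.90 and Mpc2 by 0.57 on the log2 scale (adjusted p = 2.87e-06 and 0.00193), as did the phosphatase Pdp1 (0.95, adjusted p = 1.5e-05). Of the monocarboxylate transporters on that list, Slc16a1 fell by 1.54 on the log2 scale (adjusted p = 4.24e-06), from 111 ± 26.6 to 38.1 ± 8.37 CPM, and the scarcer Slc16a7 rose by 1.08 (adjusted p = 2.1e-05), from 2.52 ± 0.502 to 5.34 ± 0.437 CPM. Of 22 further HIF-system genes tested, 13 were called (59.1%, against 51.6% of all genes), 2 higher and 11 lower, with a median of -0.35. Ddit4, an inhibitor of mTOR signalling, fell from 396 ± 124 to 20.1 ± 2.96 CPM (SD, n = 6 per group; log2 fold change -4.30, adjusted p = 4.19e-09), and Hif1an, which hydroxylates HIF-α at another residue, fell by 0.76 on the log2 scale (adjusted p = 0.000125). Epas1, which encodes another HIF-α subunit, rose by 0.73 (adjusted p = 0.00574), the opposite direction to Hif1a.

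The members' levels were then compared between hearts and lungs. Of the 35 members 25 differed between the organs at an adjusted p of 0.05 over the 12 CLP libraries, a share close to the 64.8% of all 18318 genes. Higher levels in hearts were called for 19 members (28.9% of all genes) and higher levels in lungs for 6 (35.9% of all genes). The heart-over-lung differences were led by Slc2a4 (6.94 on the log2 scale), Pfkm (5.73), Egln3 (5.37) and Pdk1 (3.72). Members higher in lungs were Aldoc (-5.06), Pfkfb4 (-2.12), Ankrd37 (-1.39), Bnip3l (-1.18), Pfkfb3 (-1.01) and Slc16a3 (-0.95). Each of these 10 had an adjusted p of 0.0298 or lower. The organs also differed in isozymes, with Pfkm holding 91.0% ± 0.790 (SD, n = 3) of the phosphofructokinase level in vehicle hearts and Pfkl 63.2% ± 3.68 in vehicle lungs.

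In CLP hearts, β-NMN was compared with vehicle to ask whether the same genes responded in a vital organ. Most glycolytic enzymes had a log2 fold change above 0, and no member passed the adjusted threshold. edgeR called 0 of the 34 members tested and 0% of all 16245 genes. At an unadjusted p below 0.05 it counted 4 members (Slc16a3, Pfkfb3, Vegfa and P4ha1), against 11.3% of all genes. DESeq2 called 1 member, Slc16a3, among 283 genes, and limma-voom 0 members among 3 genes. Of the 34 members 24 had a log2 fold change above 0 (49.3% of all genes did), among them 12 of 15 glycolytic enzymes. The groups did not overlap for 11 members (23.1% of all genes), with 8 higher (11.6%) and 3 lower (11.5%) in β-NMN hearts. With 3 mice against 3, an exact permutation test cannot give a p below 0.1.

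Slc16a3 was measured at 15.0, 18.3 and 10.8 CPM in the vehicle hearts and at 3.98, 6.21 and 6.88 CPM in the β-NMN hearts. Every β-NMN heart was below every vehicle heart, with a log2 fold change of -1.37 ± 0.27 (adjusted p = 0.435 by edgeR and 0.00184 by DESeq2). Pfkfb3 was at 29.5, 67.3 and 34.1 CPM with vehicle and at 24.8, 14.8 and 22.3 CPM with β-NMN (-1.08 ± 0.35, adjusted p = 0.435). Adrenomedullin, Adm, a vasodilator peptide, was at 5.96, 27.0 and 8.70 CPM and at 5.96, 6.13 and 6.05 CPM (-1.20 ± 0.54, adjusted p = 0.435). For Pfkfb3 and Adm the highest heart was vehicle replicate 2, and without it their log2 fold changes were -0.63 and -0.28, with -1.18 for Slc16a3.

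On the higher side, Vegfa was at 146, 80.1 and 156 CPM in vehicle hearts and at 205, 243 and 264 CPM in β-NMN hearts. The groups did not overlap (log2 fold change 0.90 ± 0.26, adjusted p = 0.435), and without vehicle replicate 2 the value was 0.64. P4ha1 was at 37.7, 32.1 and 45.0 CPM and at 54.2, 46.7 and 46.9 CPM (0.36 ± 0.15, adjusted p = 0.435). Gapdh was at 1792, 1155 and 1628 CPM and at 2368, 2055 and 1946 CPM (0.48 ± 0.23, adjusted p = 0.447). The β-NMN hearts were above all vehicle hearts for both genes, and without vehicle replicate 2 the values were 0.25 and 0.30.

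Of HIF-α and its hydroxylases, Egln1 alone had no overlap in hearts, at 464, 226 and 473 CPM with vehicle and at 537, 556 and 501 CPM with β-NMN (0.45 ± 0.29, adjusted p = 0.495). Without vehicle replicate 2 its value was 0.17. The hexokinase Hk2 was at 158, 179 and 181 CPM with vehicle and at 219, 236 and 180 CPM with β-NMN (0.29 ± 0.15, adjusted p = 0.454). Hif1a was at 48.4, 81.9 and 45.3 CPM and at 38.9, 44.9 and 51.4 CPM (-0.38 ± 0.25, adjusted p = 0.507). Egln3 was at 43.9, 10.7 and 25.8 CPM and at 29.3, 34.98 and 51.9 CPM (0.53 ± 0.48, adjusted p = 0.598). Vehicle replicate 2 was the highest of the 6 hearts for Hif1a and the lowest for Egln3, and without it their values were -0.06 and 0.14.

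Vehicle replicate 2 was the lowest or the highest of the 6 hearts for 30 of the 34 members. In that heart the summed cardiomyocyte markers were 38201 CPM, against 51214 to 59704 in the others, and the mesothelial markers 116 CPM against 6.18 to 15.2. Its mitochondrial share of counts was 12.9%, against 18.2% to 22.7%. The median log2 fold change of the glycolytic enzymes was 0.28 over all hearts and 0.15 without it. Across all members the medians were 0.17 and 0.08. By treatment, summed cardiomyocyte markers did not overlap, at 38201 to 52677 CPM in vehicle and 54627 to 59704 CPM in β-NMN hearts, with 8 of 10 above 0. Their median was 0.28 on the log2 scale, as for the glycolytic enzymes. Fibroblast and mesothelial markers had 0 of 6 and 0 of 6 above 0, with medians of -0.48 and -3.54, and sums of 1059 to 2181 against 887 to 1299 CPM and of 10.4 to 116 against 6.18 to 12.3 CPM. Summed skeletal muscle markers were 91.4 to 187 CPM in vehicle and 221 to 586 CPM in β-NMN hearts (2 of 4 tested above 0), and neutrophil markers 27.3 to 47.1 and 17.2 to 20.1 CPM (0 of 9 tested above 0). No marker of these lists was called. The part of these differences in the members' values was not tested.

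In CLP lungs no difference in a member was detectable with these libraries. edgeR called 0 of 35 members (0% of all 17008 genes), and 0 members had an unadjusted p below 0.05, against 1.77% of all genes. DESeq2 and limma-voom called 0 members as well, among 9 and 7 genes. No member's groups were free of overlap (8.21% of all genes were, 4.47% with β-NMN higher and 3.75% with it lower), and 20 members had a log2 fold change above 0 (50.1% of all genes did). The median log2 fold change was 0.05 over members, 0.17 over glycolytic enzymes and 0.00 over all genes.

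Adm had the smallest p of the lung members, at 35.01, 23.0 and 20.7 CPM with vehicle and 15.1, 13.7 and 23.0 CPM with β-NMN (-0.60, 95% interval -1.48 to 0.27, adjusted p = 0.969). Hk2 was at 36.9, 279 and 50.4 CPM with vehicle and 60.4, 38.3 and 37.1 CPM with β-NMN (-1.43, 95% interval -3.56 to 0.70, adjusted p = 0.969). Hif1a was at 36.6, 164 and 27.9 CPM and at 29.6, 39.7 and 36.0 CPM (-1.11, 95% interval -2.95 to 0.73, adjusted p = 0.969). For Hk2 and Hif1a the high value was vehicle replicate 2 alone, and without it their log2 fold changes were 0.05 and 0.12.

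Among lung members on the higher side, P4ha1 was at 60.6, 34.8 and 77.6 CPM with vehicle and at 86.2, 88.3 and 71.2 CPM with β-NMN (0.50, 95% interval -0.39 to 1.39, adjusted p = 0.969). Mxi1 was at 42.8, 16.6 and 43.7 CPM and at 38.5, 52.9 and 50.5 CPM (0.45, 95% interval -0.61 to 1.52, adjusted p = 0.969). Egln1 was at 70.5, 37.4 and 78.6 CPM and at 67.9, 86.1 and 82.7 CPM (0.34, 95% interval -0.53 to 1.22, adjusted p = 0.969). The low vehicle value of all 3 genes was that of replicate 2, and without it the values were 0.24, 0.13 and 0.08. Egln3 was scarce, at 0.944 to 1.55 CPM over the 6 lungs (-0.09, adjusted p = 0.983).

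Vehicle replicate 2 of the lungs, at 8915366 counts the shallowest library, was the lowest for 17 and the highest for 7 of the 35 members. Pgam1 was at 0.722 CPM in it and at 13.1 to 24.98 CPM in the other lungs, and Gapdh at 91.0 CPM against 325 to 436. In the other direction, Bnip3l was at 390 CPM against 114 to 174. Hk2 made up 93.6% of its hexokinase level. Its summed erythroid markers were 11867 CPM, against 1999 to 4089 in the other lungs, and its macrophage markers 1524 CPM, against 4152 to 5594. By treatment, the summed macrophage markers were 1524 to 4478 CPM in vehicle and 5158 to 5594 CPM in β-NMN lungs. Only 4 of these 10 markers had a log2 fold change above 0, however, with a median of -0.16. The cardiomyocyte markers were 302 to 563 and 97.3 to 301 CPM, with 2 of 9 tested above 0. Neither pair of sums overlapped, and no marker of either list was called. Their part in the members' values was not tested. Without that lung the glycolytic enzymes' median was -0.10 and 4 of 16 were above 0, against 11 of 16 with it, so the sign of that median rested on this library.

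**Figure D4:**
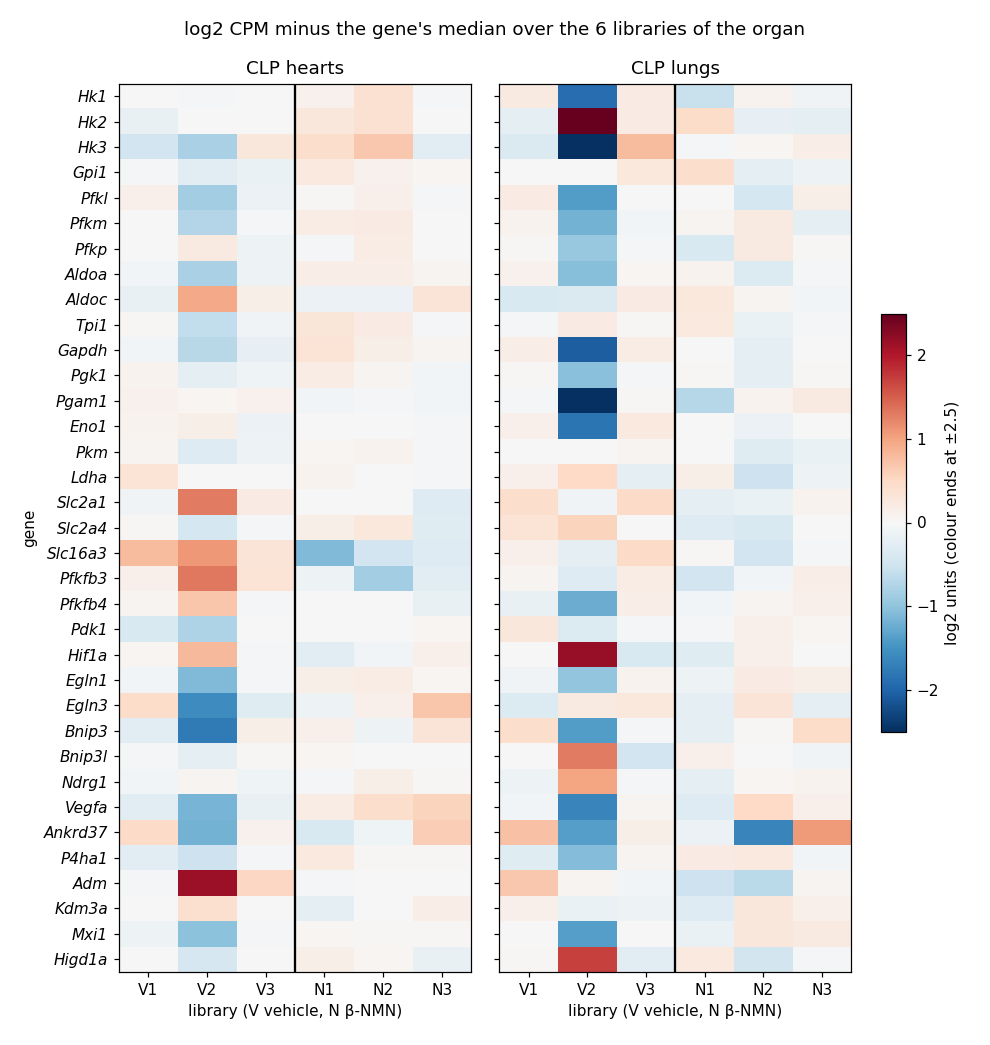
Log2 CPM of each member minus its median over the 6 libraries of the organ, as a colour from blue (lower) to red (higher), with V for vehicle and N for β-NMN. Vehicle replicate 2 lies at an end of the range for 30 of 34 members in hearts and for 24 of 35 in lungs.

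The response to β-NMN was compared between the organs by an interaction term fitted to all 12 organ libraries. edgeR called 0 of 35 members and 0% of the 18318 genes, and DESeq2 called 0 members among 14 genes. At an unadjusted p below 0.05 edgeR counted 1 member, Slc16a3, against 4.35% of all genes. The log2 fold change of Slc16a3 was lower in hearts than in lungs by 1.07 ± 0.42.

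Glycolytic enzymes were finally set beside the other HIF targets in each tissue, as medians and without a test. In peritoneal cells the medians were -0.08 and -0.16, in hearts 0.28 and 0.15, and in lungs 0.17 and 0.08. Without β-NMN replicate 6 the peritoneal medians were -0.037 and 0.0072, so the sign of the targets' median, and the order of enzymes and targets, rested on that library. Without vehicle replicate 2 the medians were 0.15 and 0.047 in hearts and -0.098 and 0.055 in lungs, so that in lungs, too, the order of enzymes and targets turned. In hearts that order turned when another library was left out, as the range given below shows. Among the other classes in peritoneal cells, the median was -0.89 for Hif1a and its hydroxylases and -0.85 for the transporters, and without β-NMN replicate 6 these were -0.64 and -0.66.

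**Figure D5:**
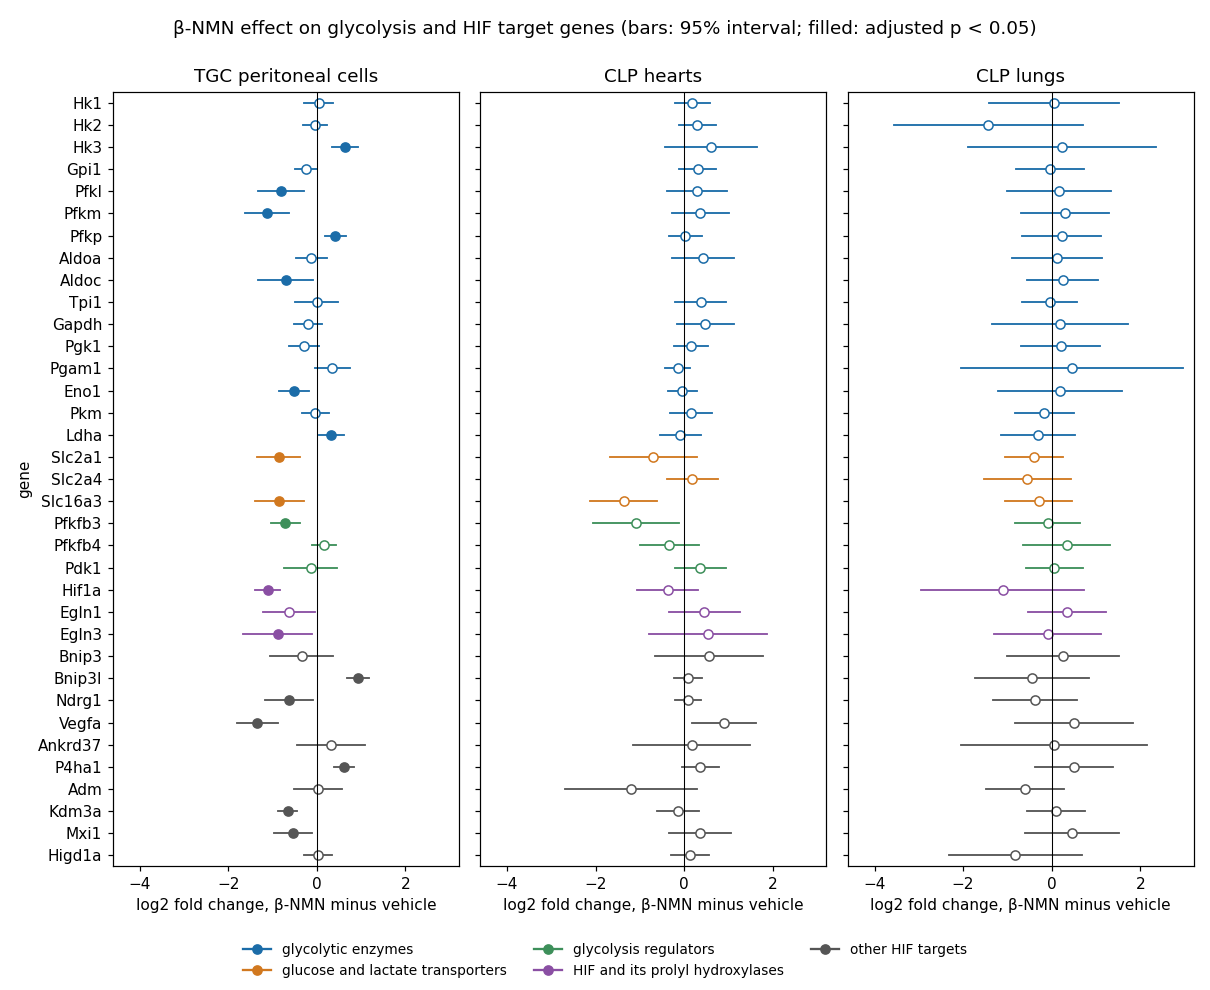
Log2 fold change (β-NMN over vehicle) of each member with its 95% interval in peritoneal cells, hearts and lungs, ordered by class. Filled points mark an adjusted p below 0.05 and reach, in peritoneal cells, from -1.34 for Vegfa to 0.93 for Bnip3l.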

How the data were processed

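The authors deposited raw read counts per gene symbol for 12 TGC and 12 CLP libraries, a table for each experiment. By the methods, poly(A) RNA was sequenced on a NovaSeq. The submitters' processing notes name STAR 2.7.3a (the methods name an earlier version), mm10 and featureCounts 2.0.0. The sources used here give neither the annotation nor the strand setting. Groups came from the labels. Number 3 stands on 2 β-NMN hearts in the labels, so the heart sharing its mouse with lung replicate 2 was used as replicate 2. The CLP source labels name thioglycollate, whereas titles and tissues give CLP.

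Separate fits per tissue used edgeR 4.0.16 (R 4.3.3): filterByExpr, TMM, and the older quasi-likelihood F-test, with Benjamini-Hochberg adjustment over all genes tested and calls at an adjusted p below 0.05. The SE is the absolute log2 fold change over the square root of F. Heart against lung, and its interaction with treatment, were fitted over the CLP libraries, in which a heart and a lung of the same number share a mouse per the labels. Levels per kilobase used GENCODE M21 exon lengths. The alternatives were DESeq2 1.42.0 and its size factors, limma-voom (limma 3.58.1), no filter, the newer quasi-likelihood form, the replicate number as a block and leaving out each library. The 2 depth sets were added after the library totals were seen. The treatment test was also run on simulated counts, with larger changes than any member showed, the same dispersion for every gene and no outlying library. That check does not cover the conditions of these data. No libraries agreed within sampling noise. All 35 members could be named, with full values for those of smallest p in each class and direction. The members, lists and rules were chosen with earlier results of these data known. p-values measure the spread between mice.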

Additional observations from a re-analysis of the deposited data

Results flagged for a closer look

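In the 68 groups of 6 peritoneal libraries examined, 16 values lay farther from the others than Dixon's criterion at the 95% level allows, and all 16 belonged to β-NMN replicate 6. The 68 groups come from the same 12 libraries, so the flags are not independent of each other, and no such count was made over all genes. Of the 16 values, 15 were low. Among glycolytic enzymes, Pfkl was at 16.4 CPM against 41.6 to 56.9 in the other β-NMN libraries, Tpi1 at 60.8 against 143 to 174, Gapdh at 543 against 740.3 to 841, Pgk1 at 141 against 210 to 246, Pgam1 at 61.5 against 111 to 140.3, Eno1 at 162 against 261 to 316 and Pkm at 473 against 648 to 748. Among transporters, regulators and hydroxylases, Slc2a1 was at 70.5 CPM against 149 to 228, Slc16a3 at 23.6 against 67.3 to 87.2, Pdk1 at 2.35 against 7.65 to 10.8, Egln1 at 3.65 against 9.41 to 15.8 and Egln3 at 1.26 against 5.20 to 9.45. Among other HIF targets, Bnip3 was at 3.47 CPM against 11.2 to 18.04, Adm at 3.21 against 8.63 to 12.4 and Mxi1 at 15.5 against 29.3 to 33.3, whereas Ndrg1 was high, at 256 against 123 to 161. The members' values in that library deviated from the rest of its group by an SD of 0.84 log2 units, against 0.17 to 0.45 in the other 11 libraries. Over all genes tested that SD was 0.61, within the 0.36 to 0.64 of the other 11.

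Pfkm and Vegfa lay in opposite directions in peritoneal cells and in hearts, with no overlap between groups in either tissue. Groups were free of overlap for 26.6% of all genes in peritoneal cells and 23.1% in hearts, and opposite directions were not counted over all genes. Neither gene was called in hearts, and Pfkm was scarce in peritoneal cells, at 0.956 to 4.37 CPM. The log2 fold change of Pfkm was -1.13 in peritoneal cells and 0.36 in hearts, and that of Vegfa was -1.34 and 0.90. Without vehicle replicate 2 of the hearts, the heart values were 0.15 and 0.64. The difference between the tissues was not tested.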

How the results depend on the processing

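The count of 18 members called in peritoneal cells was 16 with DESeq2 size factors (52% of all genes called), 17 with no filter (14.2%), 19 with limma-voom (59.1%) and 18 with DESeq2 (54.4%), the newer quasi-likelihood form (53.7%) or the replicate block (46.8%), and 13 to 18 when a library was left out (47.1% to 51.7%). It was 11 in each depth set, where 27.9% (shallower) and 30.5% (deeper) of all genes were called, against 51.6%. Of 6 other planned settings, Aldoc was called in 2, Egln3 in 4, Ldha and Ndrg1 in 5, and Egln1 was gained in 5 and Pgam1 in 1. The calls lost on leaving out a library were those of Aldoc (held in 3 of 12 fits), Ldha (9), Egln3 (5), Ndrg1 (4) and Mxi1 (5). The fits that lost Aldoc left out vehicle replicates 1 to 5 or β-NMN replicates 1, 4, 5 or 6, those that lost Ldha vehicle replicate 6 or β-NMN replicates 1 or 2, those that lost Egln3 vehicle replicates 1, 2, 3 or 5 or β-NMN replicates 1, 3 or 5, those that lost Ndrg1 vehicle replicates 3 to 5 or β-NMN replicates 1 to 5, and those that lost Mxi1 vehicle replicates 2 to 4 or β-NMN replicates 1, 3, 5 or 6. In hearts the count of 0 was 1 with DESeq2 and 0 otherwise, and in lungs it was 0 throughout. Members that differed between organs numbered 25 with DESeq2 size factors (65.1% of all genes), 26 with DESeq2 (67.2%), 27 with no filter (38.4%) or the mouse as a block (62.3%), and 24 to 29 without a library (59% to 71.1%). The number was not taken to pair the samples, since correlations of deviations ran from -0.17 to 0.13 in peritoneal cells and from -0.52 to 0.30 in lungs. In hearts they were 0.24, 0.18 and 0.073, and each heart correlated best with its own number, a hint from the data and not from the design. With the replicate block the counts were 18, 0 and 0 in peritoneal cells, hearts and lungs, 0 for the interaction and 27 between organs, and the median differences were 0.15, 0.09 and 0.26.

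The difference of medians between glycolytic enzymes and other HIF targets ranged from -0.04 to 0.16 in peritoneal cells, from -0.026 to 0.16 in hearts and from -0.15 to 0.29 in lungs without a library, and was -0.19 in lungs with limma-voom. Signs changed only for members that were not called. In the deeper libraries Hk2 was 0.056, Gpi1 0.17, Aldoa 0.49, Tpi1 0.42, Gapdh 0.21, Pgk1 0.090, Pkm 0.38 and Pdk1 0.13, and in the shallower ones Adm was -0.18 and Higd1a -0.11. With limma-voom Hk1 was -0.041, Tpi1 0.031 and Pkm 0.026 in peritoneal cells, Ankrd37 -0.30 in hearts, and 13 of 35 lung members changed sign, among them Hif1a (0.055), Egln3 (0.046) and the enzymes Hk1, Pfkl, Pfkm, Aldoa, Gapdh, Pgk1 and Eno1 (-0.30 to -0.024). Tpi1 was 0.022 with DESeq2, 0.023 with its size factors and 0.018 with no filter, and Adm was -0.053 with the replicate block. Without a library, in peritoneal cells Adm ranged from -0.086 to 0.23, Aldoa from -0.20 to 0.016, Higd1a from -0.014 to 0.13, Hk1 from -0.010 to 0.11, Hk2 from -0.081 to 0.021, Pdk1 from -0.22 to 0.078, Pkm from -0.089 to 0.10 and Tpi1 from -0.071 to 0.18. In hearts Ankrd37 ranged from -0.19 to 0.54, Eno1 from -0.12 to 0.0078, Higd1a from -0.0040 to 0.22, Ldha from -0.16 to 0.038 and Pfkp from -0.045 to 0.12. In lungs 18 of 35 members changed sign without vehicle replicate 2 and 2 to 4 without β-NMN replicate 1, 2 or 3 or vehicle replicate 3. Among those described, Egln3 ranged from -0.31 to 0.066, Hif1a from -1.47 to 0.12 and Hk2 from -1.84 to 0.051. The cause of these changes was not tested.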
